A study of Mus musculus with 3 samples.

Results

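H3K36me3 signal over 8 transcription factor genes that are active in resting T cells, Tcf7, Lef1, Satb1, Foxo1, Foxp1, Klf2, Klf3 and Id3, was compared between splenic and large intestinal (LI) Treg cells. A peak belonged to a gene when its midpoint lay in the gene body, that is, between the outermost start and end of the gene in the GENCODE M21 annotation. By this rule the 8 genes held 345 of the 120910 deposited peaks. They are 8 of the 11948 genes that held a peak midpoint, out of 55450 annotated genes. All 8 passed the minimum, a sum of 20 RPKM over spleen and LI, which left 10887 genes to compare.

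The mark, histone H3 trimethylated at lysine 36, was profiled with ChIP-seq (sequencing of immunoprecipitated chromatin) in regulatory T cells (Treg cells), the CD4+ T cells that carry Foxp3 and restrain immune responses. Both groups came from C57BL/6 mice at steady state, of the genotype that the labels give as Foxp3-YFP and the methods as Foxp3Cre-YFP, in which the Foxp3 gene drives Cre and the fluorescent reporter. CD3+CD4+YFP+ cells were sorted from the spleen or the large intestine, pooled from 7 female and 7 male mice, and each tissue gave 1 library from 1 µg of chromatin. The input, non-precipitated chromatin of splenic Treg cells, was not analysed here. Setd2, which writes the mark, was not deleted in either group. The general age range in the methods is that of young adult mice, and none is given for these libraries in particular.

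With 1 library per tissue no difference between the tissues could be tested. Intervals given below are approximate 95% intervals of counting error and do not cover the spread between animals or between immunoprecipitations. Values are RPKM, the read coverage per kilobase, scaled to sequencing depth and averaged over a peak. From the smallest steps in the values, the libraries corresponded to about 29600000 mapped reads in spleen and 38100000 in LI. The signal of a gene is the sum over its peaks, and ratios are log2 of LI over spleen with 0.5 RPKM added to each sum, after scaling each library to its total over all peaks. This scale understates the ratio of genes with little signal. In pooled cells, fewer cells that carry the mark and less mark per cell cannot be told apart.

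The identity of both libraries was checked with marker genes. All 9 listed markers of Treg cells held peaks, of which Cd3e, Cd3d, Cd3g and Cd4 mark T cells in general and Foxp3, Il2ra, Ctla4, Ikzf2 and Tnfrsf18 are high in Treg cells. Foxp3 had 132.5 RPKM in spleen and 156.3 RPKM in LI and a log2 ratio of 0.19. The median log2 ratio of the 9 was -0.08, but single markers differed. The interval lay wholly on the spleen side in 3 of them, Ikzf2 (-0.55), Cd3e (-0.41) and Cd3g (-0.28). On the LI side it did so in 2, Tnfrsf18 (0.80) and Ctla4 (0.59). Among all genes compared these shares were 15.2% and 17.9%. The CD8 T cell marker Cd8a held none. Cd8b1 held 2 peaks with 21.1 RPKM in spleen and 9.46 RPKM in LI, a log2 ratio of -1.16 (-2.28 to -0.04). Of 10 B cell markers, 5 held peaks that summed to 86.3 RPKM in spleen and 74.3 RPKM in LI. Cd79a had 47.2 RPKM in spleen and 29.8 RPKM in LI, with a log2 ratio of -0.70 (-1.32 to -0.08). Cd22, below the minimum of 20 RPKM, had 12.4 RPKM in spleen and 0.248 RPKM in LI. Cd79b, Fcer2a and Pax5 had more signal in LI, with intervals that included 0. Ms4a1 and Ebf1 were among those that held none. Of 8 myeloid markers, 2 held peaks with 29.7 RPKM in spleen and 31.3 RPKM in LI. Of 9 markers of intestinal epithelium, 3 held peaks, with 55.1 RPKM in spleen and 93.8 RPKM in LI. Among these, Epcam had 25.3 RPKM in spleen and 47.2 RPKM in LI, with a log2 ratio of 0.84 (0.23 to 1.46). The part of other cells in the results below was not tested.

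Setd2 travels with elongating RNA polymerase II, so that H3K36me3 lies over the bodies of transcribed genes and builds up towards their 3′ ends. Naive and resting T cells, resting Treg cells included, keep a programme of transcription factors that holds them in quiescence and in circulation through lymphoid organs. Its members include the HMG-box factors Tcf7 and Lef1, the forkhead factors Foxo1 and Foxp1, the Krüppel-like factors Klf2 and Klf3, the chromatin organiser Satb1 and the E protein inhibitor Id3. Many of these factors are turned down when T cells are activated and enter tissues.

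The mark is also read by DNA methyltransferases, which methylate CpG sites within transcribed genes. Of the peaks of 100 to 300 bp that lay in an intron and touched no exon, the one with the highest signal is shown for Tcf7, Lef1, Klf3 and Satb1 to show what sequence these values stand for. Each was read 5′ to 3′ on the strand of its gene from the mm10 genome (GRCm38), with every CpG in capitals. They lie at chr11:52265953-52266188 (minus strand), chr3:131140147-131140423 (plus strand), chr5:64814270-64814474 (plus strand) and chr17:51793959-51794195 (minus strand).
Tcf7: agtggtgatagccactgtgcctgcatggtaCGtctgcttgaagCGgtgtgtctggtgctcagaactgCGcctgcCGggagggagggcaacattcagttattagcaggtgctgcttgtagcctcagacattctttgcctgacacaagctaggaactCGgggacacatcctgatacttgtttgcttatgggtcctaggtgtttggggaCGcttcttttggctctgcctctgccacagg
Lef1: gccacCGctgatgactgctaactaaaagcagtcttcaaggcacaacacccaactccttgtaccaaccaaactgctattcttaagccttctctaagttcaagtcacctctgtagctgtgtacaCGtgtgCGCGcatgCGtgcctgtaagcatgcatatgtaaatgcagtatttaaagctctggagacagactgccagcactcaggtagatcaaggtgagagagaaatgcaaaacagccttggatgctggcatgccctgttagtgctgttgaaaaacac
Klf3: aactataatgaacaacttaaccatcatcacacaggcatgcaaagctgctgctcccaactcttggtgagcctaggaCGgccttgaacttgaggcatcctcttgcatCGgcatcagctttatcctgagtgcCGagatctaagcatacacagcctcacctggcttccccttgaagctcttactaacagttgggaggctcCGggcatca
Satb1: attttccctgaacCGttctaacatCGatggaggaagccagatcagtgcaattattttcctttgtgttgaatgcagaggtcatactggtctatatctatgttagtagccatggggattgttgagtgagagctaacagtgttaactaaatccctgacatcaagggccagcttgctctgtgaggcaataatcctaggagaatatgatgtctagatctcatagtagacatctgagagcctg

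The Tcf7 stretch held 6 CpGs, with a signal of 24.1 RPKM in spleen and 6.21 RPKM in LI. The Lef1 stretch held 5 CpGs with 17.9 RPKM in spleen and 8.92 RPKM in LI, and the Klf3 stretch held 4 CpGs with 17.5 and 8.71 RPKM. In these 3 the signal was higher in spleen. The Satb1 stretch, with 2 CpGs, went the other way, with 10.4 RPKM in spleen and 13.1 RPKM in LI. Over all 345 member peaks the median was 1.47 CpGs per 100 bp, against 1.11 in all 120910 peaks.

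The summed H3K36me3 signal was lower in LI than in spleen Treg cells at 8 of 8 genes, beyond counting error at 6 of them. Tcf7 and Id3 were more than 2-fold lower in LI, Lef1, Klf3, Satb1 and Foxp1 were between 1.63-fold and 1.94-fold lower, and Klf2 and Foxo1 had intervals that included 0. Among all genes compared, 49.3% had more signal in spleen and 2.04% were more than 2-fold higher in spleen, against 8 of 8 and 2 of 8 members. The counting interval lay wholly on the spleen side in 6 of 8 members and in 15.2% of all genes. No member lay on the LI side, where 17.9% of all genes had their interval and 3.42% were more than 2-fold higher. The members' median log2 ratio was -0.88, beside a median of 0.00 over all genes compared, of which the middle 50% lay between -0.20 and 0.24.

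**Figure D1:**
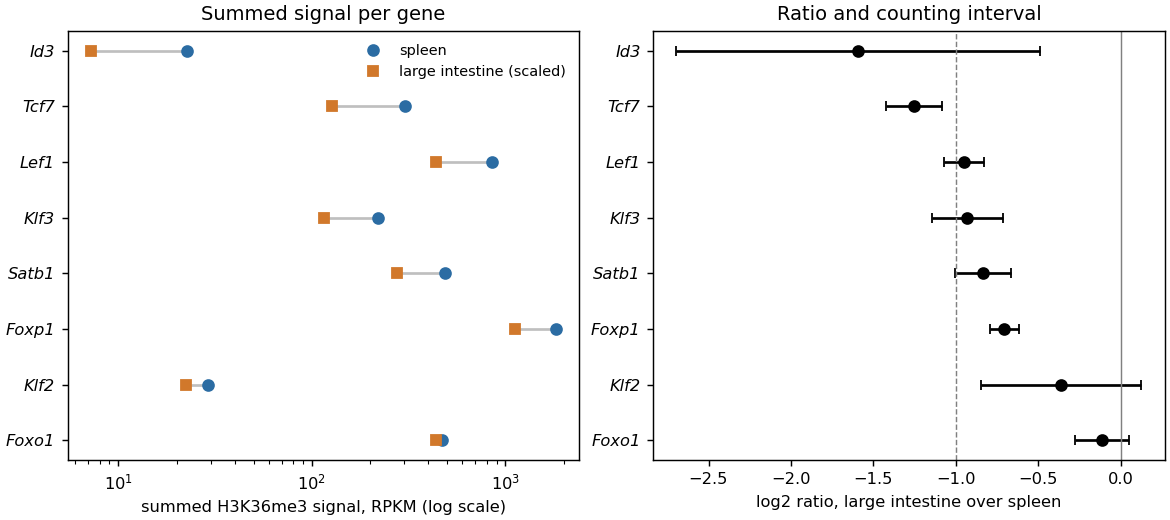
Summed H3K36me3 signal of each member in the spleen library and the LI library, the latter scaled to the spleen total (left, RPKM on a log axis), and the log2 ratio of LI over spleen (right), where bars are 95% counting intervals and the dashed line marks a 2-fold difference. The LI square lies left of the spleen circle in all 8 genes, and the bars of Klf2 and Foxo1 cross 0.

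**Figure D2:**
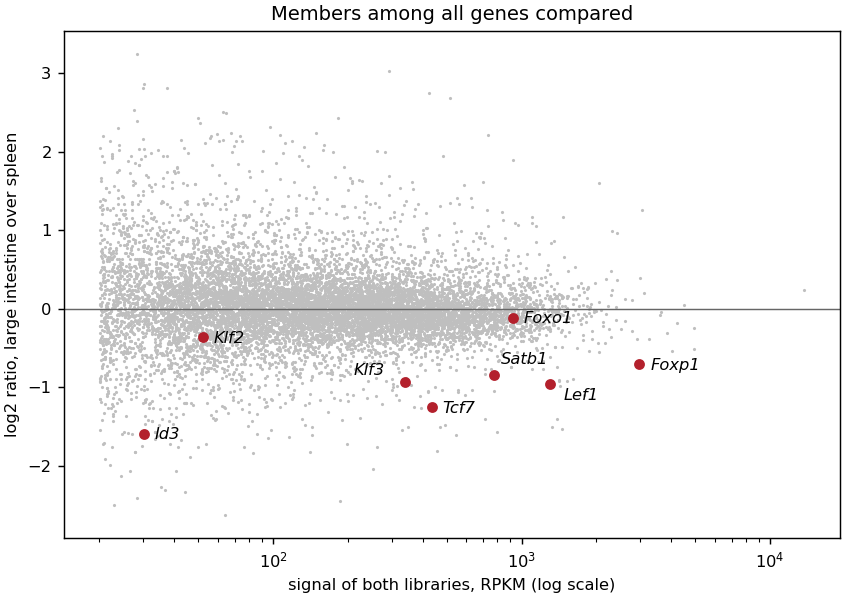
Log2 ratio of LI over spleen against the summed signal of both libraries (RPKM, log axis) for the 10887 genes compared (grey), with the 8 members in red. Lef1, Satb1, Klf3 and Tcf7 lie along the lower edge of the cloud at their level of signal, whereas Foxo1 lies within it.

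The difference ran through most single peaks. Of the 345 member peaks, 305 (88.4%) had more signal in spleen, beside 51.1% of all peaks. Of the 62 member peaks that were 1 kb or longer, 60 had more signal in spleen. Both exceptions were in Foxo1, in which 3 of 5 such peaks were higher in spleen. By their midpoint, 307 of the 345 peaks lay in introns. Peaks of 1 gene come from the same library and are not replicates. The set merges peaks called in either tissue, so a short peak can be in it through its signal in 1 tissue alone. In this count and in the gene sums a short peak also weighs as much as a long one. With peaks weighted by length, 8 of 8 members still had more signal in spleen, but Foxp1 had a log2 ratio of -0.46 in place of -0.71.

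**Figure D3:**
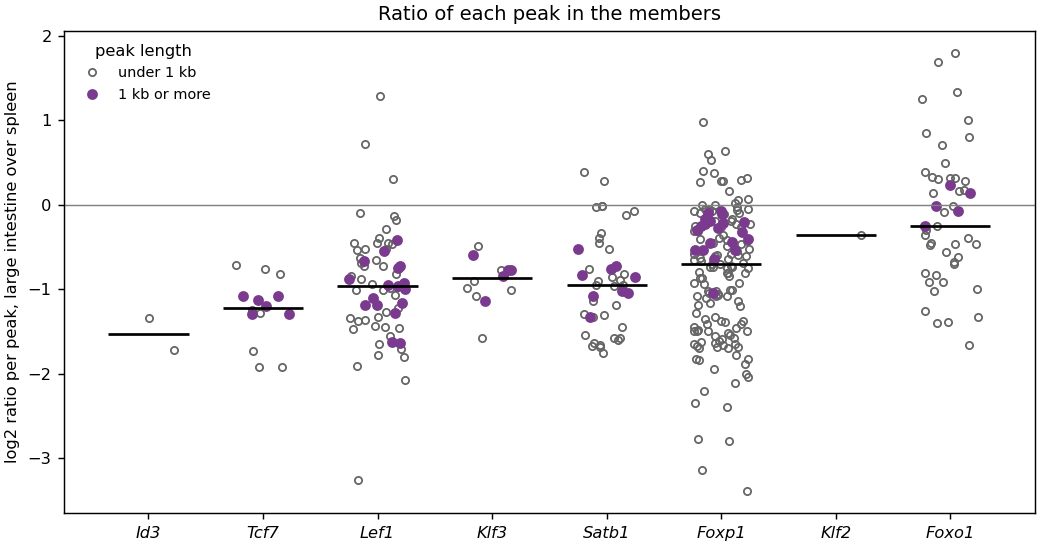
Log2 ratio of LI over spleen for each of the 345 member peaks, by gene, with open circles for peaks under 1 kb, filled circles for peaks of 1 kb or more and a line at the median of each gene. Every Tcf7, Klf3 and Id3 peak lies below 0, and Foxo1 peaks lie on both sides of it.

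Levels can be compared between genes only per length, here as the mean RPKM over every base of the gene body. For this measure alone, every base of a body that lay in any peak was counted, wherever the midpoint of the peak, and bases outside peaks were counted as 0. On this scale Klf2 was the most densely marked member in spleen, with 29.0 RPKM per base and 95.8% of its body covered. Tcf7 followed with 24.6 RPKM per base and 83.9% covered, and Klf3 with 15.4 RPKM per base and 60.9% covered. The 5 others ran from 7.04 RPKM per base in Lef1 to 2.74 RPKM per base in Foxp1, whose body of 597.4 kb was covered to 19.5%.

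The first 4 places were the same in LI, with 15.3 RPKM per base in Klf2, 10.7 in Tcf7, 8.68 in Klf3 and 3.78 RPKM per base in Lef1. Foxo1 held the seventh place in spleen with 3.21 RPKM per base and the fifth in LI with 3.17 RPKM per base, above Satb1 and Foxp1. Id3 was the least marked in LI, with 1.17 RPKM per base.

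Ordered by their ratio, the members ran from Id3 through Tcf7, Lef1, Klf3, Satb1, Foxp1 and Klf2 to Foxo1. Of the neighbours in this order only Tcf7 and Lef1 differed beyond counting error, by 0.30 (interval 0.09 to 0.51) on the log2 scale. Lef1, Klf3 and Satb1 could not be told apart from each other as neighbours. Farther apart in the order, Foxp1 lay above Tcf7 by 0.55 (0.36 to 0.74) and above Lef1 by 0.25 (0.10 to 0.40).

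Tcf7 encodes Tcf1, an HMG-box factor that maintains naive and memory T cells and partners with beta-catenin. Its body (chr11:52252371-52283014, minus strand) held 14 peaks, which summed to 304.0 RPKM in spleen and 131.3 RPKM in LI. Spleen was higher in 14 of 14 peaks, and the sum was 2.39-fold higher in spleen, with a log2 ratio of -1.25 (interval -1.43 to -1.08). Only 0.955% of all genes had a ratio at or below it. Its strongest peak in both libraries was 7316 bp long, centred 22.1 kb from the start in the 3′ part of the gene, with 45.2 RPKM in spleen and 18.8 RPKM in LI.

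The difference at Tcf7 ran through the whole gene. The first 50% of the body had a log2 ratio of -1.13 and the last 50% of -1.42, and the difference between them was within counting error. The non-coding genes Gm26551 and A630014C17Rik overlap Tcf7, and 9 of its 14 peaks lay in the body of one of them, where reads could not be told apart. The 5 other peaks gave a log2 ratio of -1.08.

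Lef1, a close relative of Tcf7, shares its DNA motif and many of its functions in T cells. Its 64 peaks (chr3:131110471-131224356, plus strand) summed to 853.0 RPKM in spleen and 454.6 RPKM in LI. The log2 ratio was -0.95 (-1.07 to -0.83), and 61 of 64 peaks were higher in spleen. The 3 exceptions were short, of 200 to 292 bp. The strongest peak in spleen, 2315 bp long and 93.6 kb from the start, had 20.9 RPKM in spleen and 11.1 RPKM in LI. The strongest in LI was one of the exceptions, with 11.2 RPKM in spleen and 14.3 RPKM in LI.

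Lef1 has a second, internal start annotated by RefSeq 45.8 kb into the gene. Before it, 23 peaks summed to 297.0 RPKM in spleen and 147.3 RPKM in LI, with a log2 ratio of -1.06. After it, 41 peaks summed to 556.0 and 307.3 RPKM, with a log2 ratio of -0.90. The difference between both stretches, 0.16 (-0.12 to 0.43), was within counting error. Per base the stretch after the internal start was the more densely marked in either tissue, with 9.07 RPKM per base in spleen and 5.01 RPKM per base in LI, against 4.02 and 1.95 RPKM per base before it.

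Foxp1 encodes a forkhead factor that keeps naive T cells quiescent. Its 159 peaks (chr6:98925338-99522721, minus strand) summed to 1824 RPKM in spleen and 1154 RPKM in LI, the largest sums of the 8, with a log2 ratio of -0.71 (-0.79 to -0.62). Spleen was higher in 144 of 159 peaks. The peak with the highest value in spleen had 23.0 RPKM there and 20.5 RPKM in LI. The highest in LI had 22.0 RPKM in spleen and 21.6 RPKM in LI. Both lay in the last 20% of the gene, at 513.1 and 587.8 kb from the start, and both were closer to equal than the gene as a whole.

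Of the 6 members with peaks on both sides of the middle of the gene, only Foxp1 had a ratio that changed along the gene beyond counting error. The first 50% of the body had a log2 ratio of -1.25 and the last 50% of -0.60, a difference of 0.66 (0.39 to 0.92), which exceeded the same difference in 93.2% of the 6112 coding genes for which it could be computed. In the other 5 it was within counting error, from -0.29 in Tcf7 to 0.19 in Lef1. Between 40% and 50% of the body Foxp1 had a log2 ratio of -1.27. It had -0.64 between 70% and 80%, -0.47 between 80% and 90%, and -0.35 in the last 10%. None of the 32 Foxp1 peaks in the first 50% was 1 kb or longer, against 20 of 127 in the last 50%. Over the whole gene, peaks under 1 kb had a log2 ratio of -0.80 and longer ones of -0.33. Position and peak length were thus mixed in the contrast of the first and last 50%.

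RefSeq annotates internal Foxp1 starts 256.2 kb and 494.4 kb from the outermost one, and peaks were described between them. This division was made after the gradient had been seen. GENCODE annotates further internal starts, which were not used: peaks at 274.4, 479.2 and 587.8 kb, among others, lay within 1 kb of one. The first stretch, before either internal start, held 7 peaks that covered 0.975% of its length. The 97 peaks between the internal starts summed to 1080 RPKM in spleen and 575.8 RPKM in LI, with a log2 ratio of -0.95 (-1.09 to -0.82). The 55 peaks after the RefSeq start at 494.4 kb summed to 670.4 and 545.4 RPKM, with a log2 ratio of -0.34 (-0.46 to -0.23). They lay above the stretch before by 0.61 (0.43 to 0.79). Peaks of the last stretch covered 61.5% of its length, against 21.3% in the middle one. Within the last stretch, peaks under 1 kb had a log2 ratio of -0.38 and those of 1 kb or more of -0.27. The middle stretch had -0.99 and -0.55 for the same lengths, so that the step between stretches was present in either length class. Of the 159 peaks, 9 lay also in the body of another annotated gene.

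**Figure D4:**
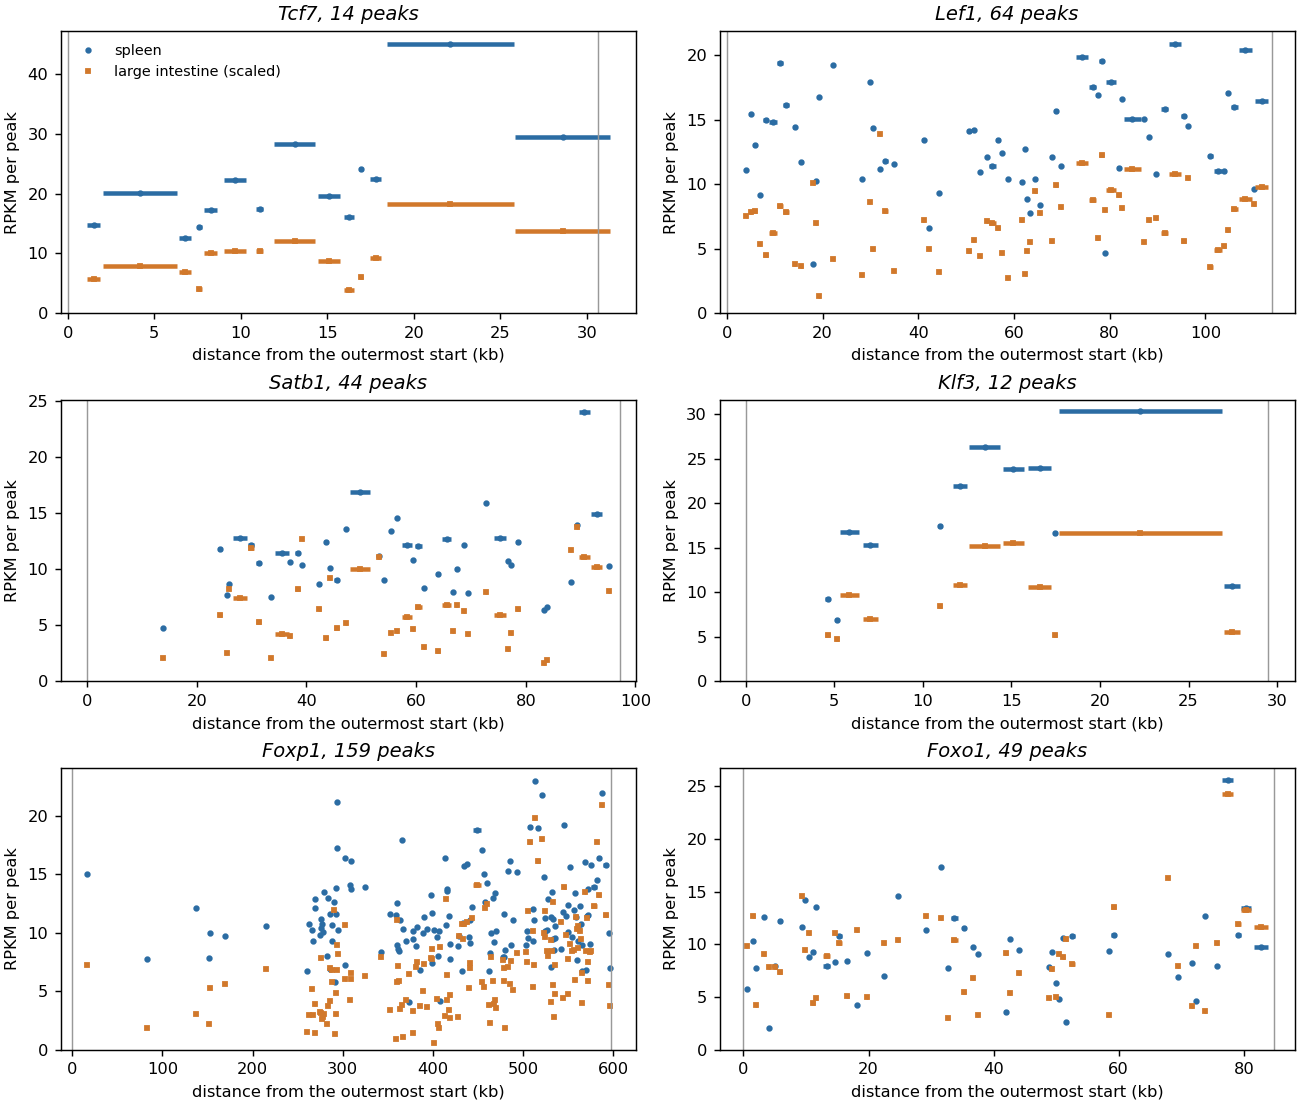
RPKM of each peak in spleen (blue) and LI (orange, scaled to the spleen total) against the distance of its midpoint from the outermost start of the gene in kb, for the 6 members with 12 or more peaks; horizontal bars are the peak lengths and grey lines the gene ends. Blue lies above orange along Tcf7, Lef1, Satb1 and Klf3, both colours come closer towards the end of Foxp1, and they mix along Foxo1.

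The windows from 250 bases before to 50 after each RefSeq start were searched for the TCF/LEF motif CTTTGA on either strand (TCAAAG on the other). All 8 members matched the table, with 18 windows. The motif was found in 2 of the 18, both at internal starts, and in 16.0% of all 32851 windows. They are 2 of the internal starts described above, that of Lef1 and the Foxp1 start 256.2 kb into the gene. Their upstream bases are shown because they held the motif, in capitals, 5′ to 3′ on the strand of the gene. The Foxp1 start at 494.4 kb, where the signal was also divided, is not shown. Of the Foxp1 window 233 upstream bases are shown, which stop short of the start at 99266515. The Lef1 stretch is chr3:131156044-131156293 (plus strand) and the Foxp1 stretch, at the start 256.2 kb into the gene, is chr6:99266533-99266765 (minus strand), both of GRCm38 and from RefSeq.
Lef1: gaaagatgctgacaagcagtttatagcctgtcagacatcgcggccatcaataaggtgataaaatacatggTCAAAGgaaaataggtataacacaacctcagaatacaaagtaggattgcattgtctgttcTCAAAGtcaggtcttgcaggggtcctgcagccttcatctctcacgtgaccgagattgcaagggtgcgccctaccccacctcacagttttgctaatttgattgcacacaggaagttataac
Foxp1: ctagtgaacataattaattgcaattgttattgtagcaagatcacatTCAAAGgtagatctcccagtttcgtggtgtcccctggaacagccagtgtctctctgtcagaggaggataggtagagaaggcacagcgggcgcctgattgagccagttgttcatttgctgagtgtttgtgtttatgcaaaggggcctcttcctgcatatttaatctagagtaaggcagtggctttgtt

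The Lef1 stretch held the motif 2 times and the Foxp1 stretch 1 time. These matches describe the letters only, and binding was not measured. At the Foxp1 start the ratio did not move beyond counting error, with a difference of 0.22 (-0.35 to 0.79) between the stretches on its sides.

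Foxo1, a forkhead factor that the kinase Akt keeps out of the nucleus, drives genes of homing and survival in resting T cells and is needed in Treg cells. Its 49 peaks (chr3:52268336-52353221, plus strand) summed to 471.4 RPKM in spleen and 449.6 RPKM in LI, nearly the same. The log2 ratio was -0.11 (-0.28 to 0.05), which allows spleen to be higher by up to 0.28 on the log2 scale or LI by up to 0.05, as far as counting error goes. Spleen was higher in 29 peaks and LI in 20. The strongest peak in both libraries lay over coding sequence in the last 10% of the gene, with 25.6 RPKM in spleen and 25.1 RPKM in LI. Foxo1 was the only member in which long peaks also fell on both sides.

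Klf3 is a zinc finger repressor of the Krüppel-like family. Its 12 peaks (chr5:64803388-64832901, plus strand) summed to 219.5 RPKM in spleen and 118.7 RPKM in LI. All 12 were higher in spleen, and the log2 ratio was -0.93 (-1.15 to -0.71). Its longest peak, of 9191 bp in the 3′ part of the gene, reached 30.4 RPKM in spleen and 17.3 RPKM in LI. The first 50% of the body had a log2 ratio of -0.89 and the last 50% of -0.97.

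Klf2 drives S1pr1, the receptor by which T cells leave lymphoid organs, and is itself a target of Foxo1. It is a short gene of 2.62 kb (chr8:72319033-72321656, plus strand) and held 1 peak by midpoint. This peak, over the start of the gene, had 28.9 RPKM in spleen and 23.2 RPKM in LI, with a log2 ratio of -0.36 (-0.85 to 0.13). The mark over the rest of Klf2 lay in a second peak of 4056 bp (chr8:72319890-72323945), which covered 1767 bases of the body but was left out because its midpoint lay 261 bp past the gene end. In spleen it reached 30.9 RPKM and in LI 12.9 RPKM, with a log2 ratio of -1.27 (-1.51 to -1.03). Both peaks together gave -0.77 (-1.06 to -0.47), so that the call for Klf2 depends on the rule that assigns peaks. It also depends on other settings. With the median ratio of peaks of like GC content subtracted, Klf2 had a log2 ratio of -0.70. With reads taken to cover 75 bp, all 8 members had intervals wholly below 0.

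Id3 binds E proteins and keeps them from DNA, and it is expressed by naive and resting T cells. It is a gene of 2.26 kb (chr4:136143497-136145755, plus strand) with 2 peaks, which summed to 22.7 RPKM in spleen and 7.46 RPKM in LI. The log2 ratio of -1.59 was the lowest of the 8, but its interval was also the widest (-2.69 to -0.49), since the sums stood for about 22.6 reads in spleen and 10.1 in LI. Both peaks were higher in spleen, with 10.2 and 12.6 RPKM there and 3.86 and 3.60 RPKM in LI.

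Satb1 folds chromatin into loops in T cells and takes part in Treg cell development. Its 44 peaks (chr17:51736187-51833290, minus strand) summed to 490.3 RPKM in spleen and 283.2 RPKM in LI. The log2 ratio was -0.84 (-1.0 to -0.67), and 42 of 44 peaks were higher in spleen. The first 10% of the gene held no peak, and the first one was centred 13.8 kb from the outermost start. From 20% to 90% of the body, in steps of 10%, log2 ratios lay between -1.30 and -0.60, and the last 10% had -0.39. There, the peak with the highest spleen value had 24.0 RPKM in spleen and 11.5 RPKM in LI, while the one with the highest LI value and 437 bp long, had 14.0 and 14.3 RPKM.

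Neighbouring genes were compared to see whether the ratios belonged to wider regions. On each side of each member, the nearest coding gene that reached 20 RPKM was taken, at distances of 5.51 to 1646 kb with a median of 97.1 kb. Of these 16 genes, 8 had a log2 ratio below 0 and none was more than 2-fold higher in spleen, beside 49.3% and 2.04% of all genes compared. The ratio lay above that of its member in 15 of 16, and in 8 of the 8 that lay within 100 kb, a distance chosen after the values had been seen. The lowest, -0.65 in Mgst2 beside Foxo1, was the exception. Of all genes compared, the share at or below a member ran from 0.367% for Id3 to 13.6% for Klf2 and 34.9% for Foxo1. Most genes anywhere would thus lie above the members, and the count of 15 cannot show whether neighbours differ from other genes. An interval wholly on the spleen side was found in 4 of the 16, beside 15.2% of all genes. Skp1a (-0.37) lay 5.51 kb from Tcf7 and E2f2 (-0.44) 26.6 kb from Id3. Mgst2 lay 585.7 kb from Foxo1 and Rab5a (-0.26) 1646 kb from Satb1. The genes taken on both sides of Foxp1 were higher in LI, Eif4e3 at 102.4 kb with a log2 ratio of 0.69 and Frmd4b at 1308 kb with 1.01, and so was Rpl34 beside Lef1 with 0.52.

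Relatives of the members in the same gene families were described in the same way. Of the other Klf genes, 8 of 15 held no peak, and of the 6 with enough signal Klf13 was lower in LI (-0.22) and Klf10 higher (0.42). Among the Foxo, Foxp and Satb relatives 4 of 7 were compared, and only Foxo3 had an interval off 0, at 0.27. Of the 4 Akt and Sgk kinases that act on Foxo1, Akt1 had more signal in LI, with 83.9 RPKM in spleen and 108.7 RPKM in LI and a log2 ratio of 0.33 (0.22 to 0.43).

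Of the 10 listed Tcf/Lef relatives and partners, Tcf7l1, Tcf7l2 and Tle2 held no peak and 6 had enough signal. Of these, 3 had an interval wholly on the spleen side and 0 on the LI side, beside 15.2% and 17.9% of all genes compared. They were Bcl9l (-0.62) and Bcl9 (-0.55), coactivators of beta-catenin, and Tle4 (-0.35), a Groucho corepressor. The median of the 6 was -0.27. Ctnnb1, the gene of beta-catenin, had 68.3 RPKM in spleen and 71.4 RPKM in LI.

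Id2, the relative of Id3 that is high in effector T cells, stood opposite to Id3. Its 3 peaks summed to 7.28 RPKM in spleen and 42.8 RPKM in LI, with a log2 ratio of 2.43 (1.37 to 3.49). Tcf12, one of the E proteins that both inhibit, had -0.39 (-0.65 to -0.12). The difference between Id2 and Id3 is thus one of opposite direction with both intervals off 0, on few reads.

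Of 3 homing and survival receptors that Foxo1 and Klf2 drive, S1pr1 and Ccr7 were more than 2-fold higher in spleen, and their intervals lay wholly on that side. The shares of all genes compared were 2.04% and 15.2%. S1pr1 had 32.0 RPKM in spleen and 9.36 RPKM in LI with a log2 ratio of -1.76, and Ccr7, the receptor that guides T cells to lymph nodes, had 61.5 and 24.8 RPKM with -1.34. Il7r, the receptor of the survival cytokine IL-7, had 140.9 and 132.7 RPKM with -0.13 (-0.38 to 0.11), close to the ratio of Foxo1.

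Other quiescence genes divided. Of 11, Foxj1 held no peak, and of the 10 compared Bach2 (591.3 RPKM in spleen, 205.4 RPKM in LI, log2 ratio -1.57) and Myb (258.6 and 112.0 RPKM, -1.25) were more than 2-fold higher in spleen. Bcl11b had -0.27 (-0.38 to -0.17), and the 7 others had intervals that included 0. Of all genes compared, 2.04% were more than 2-fold higher in spleen. Factors of activated and tissue Treg cells lay on the LI side. Of 7 compared, 4 were more than 2-fold higher in LI, Nfil3 (1.61), Prdm1 (1.33), Maf (1.24) and Rora (1.17), beside 3.42% of all genes. In 6 of these 7 factors the interval lay wholly on that side, beside 17.9% of all genes. The median of the 7 factors was 1.17, against -0.10 for the quiescence genes and -1.34 for the receptors.

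**Figure D5:**
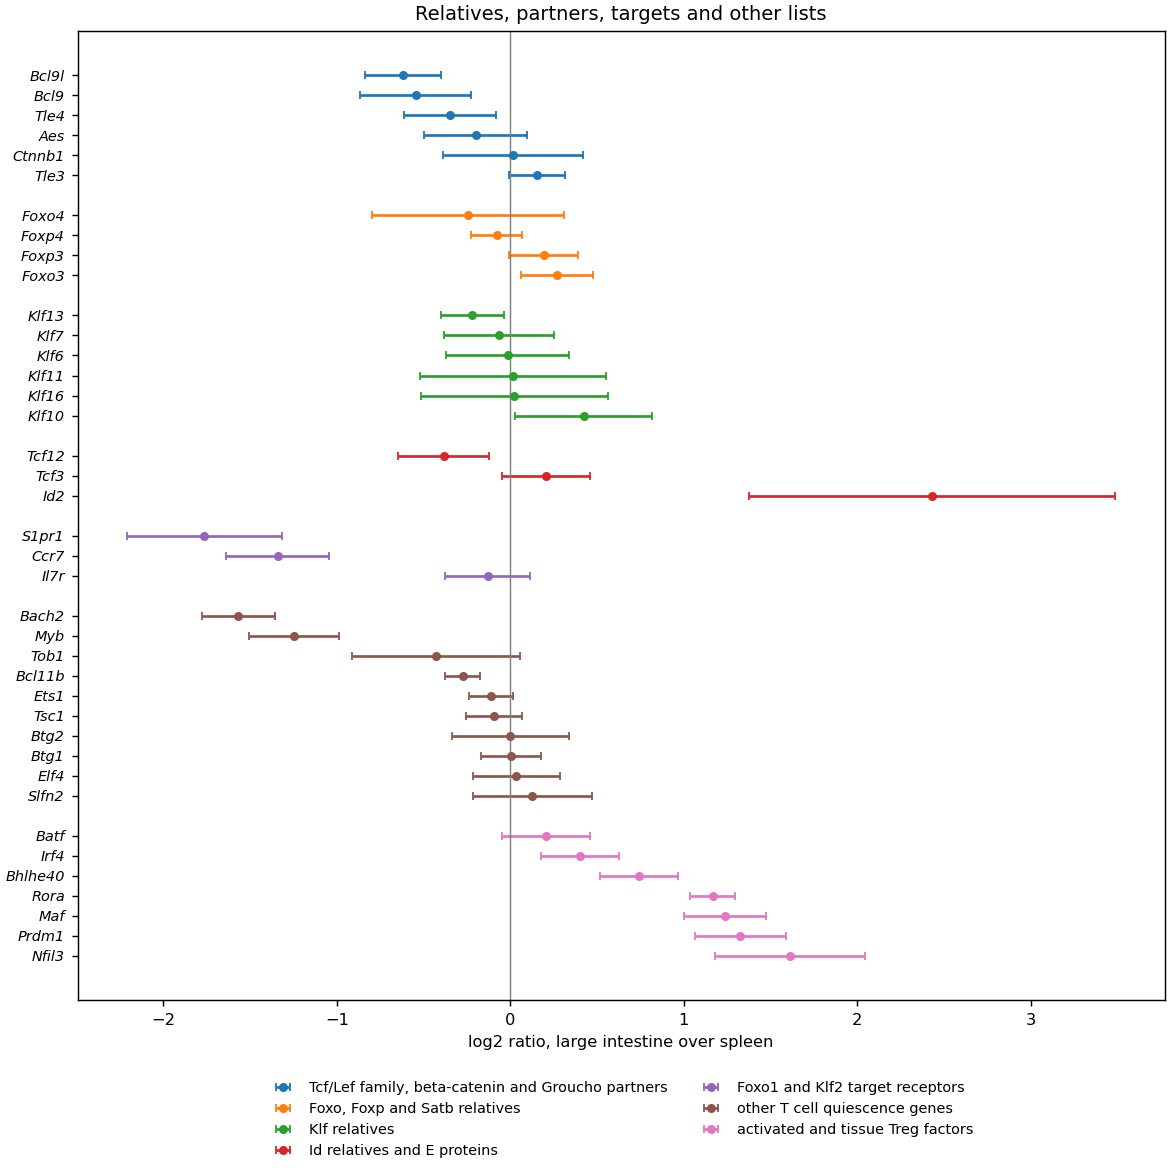
Log2 ratio of LI over spleen with 95% counting intervals for the listed relatives, partners, targets and other genes that reached 20 RPKM, one colour per list. S1pr1, Ccr7, Bach2 and Myb lie at the spleen end, and Id2, Nfil3, Prdm1, Maf and Rora at the LI end.

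The ratio of peaks moved with their base composition: over all peaks its median went from -0.41 in the 10% of peaks with the lowest GC content to 0.29 in the 10% with the highest. The member peaks had a median GC content of 47.0%, against 46.5% in all peaks. With the median ratio of peaks of like GC content subtracted, 8 of 8 members remained lower in LI and their median log2 ratio was -0.84. Tcf7, whose peaks had a median GC content of 53.8%, then had -1.47.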

How the data were processed

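The table of the whole series gave 1 value per merged peak and tissue. Per the study's methods, the authors aligned 75-nt single-end reads to mm10, called peaks in each tissue with MACS2 (p cutoff 0.01) against the splenic input, merged them with bedtools and averaged coverage tracks over each peak. The deposited values are RPKM: the table is labelled raw counts, but its values are not whole. The coverage tracks were taken to have bins of 20 bp, and steps were read from peaks with both ends on bin edges. In these peaks, value times the number of bins comes in steps of 1.69 RPKM in spleen and 1.31 RPKM in LI. The submitters' processing notes also name FastQC and Bowtie2, without their role. Tool versions are not given in the sources used here. Reads per peak were estimated from these steps with each read taken to cover 200 bp, which gives wider intervals than 75 bp would, and no count test was run.

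Each column was scaled to its total over all peaks (log2 of LI over spleen totals 0.046), peaks were summed per gene by midpoint in GENCODE M21 (strand ignored), and log2(value + 0.5 RPKM) ratios were taken in genes that reached a sum of 20 RPKM over the columns. None of 21 chromosomes had a peak past its end in GRCm38. All members were named in full. Of each gene list other than the cell type markers, the genes with an interval off 0 were named, at most 4 by the bound nearer to 0. Cell type markers singled out (Foxp3, Cd8b1, Epcam, the B cell markers and the Treg cell markers with an interval off 0) were picked after their values were seen. So were Ctnnb1, Il7r and the genes without peaks. Some listed genes are not reported here. Members, lists and tests were chosen with earlier results of these data known. Alternatives covered scaling, summing, pseudocount, filters, peak assignment and GC content. Ratios and intervals were run on simulated reads with counting error only and the same 200 bp per read. This could not check that read cover or the spread between samples. Analyses used Python 3.11.15, numpy 2.4.6, pandas 2.3.3, matplotlib 3.10.9 and samtools 1.23.1. The input was not used.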

Additional observations from a re-analysis of the deposited data

How the results depend on the processing

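No paired analysis was possible because each tissue had 1 library, and none could be left out. Under the other settings 7 or 8 of 8 members, or 6 of 6 where only peaks of 1 kb or more were kept, had more signal in spleen. Between 2 and 3 members were more than 2-fold higher, and the median log2 ratio lay between -0.88 and -0.75. The share of member peaks higher in spleen was 96.8% among peaks of 1 kb or more, where Klf2 and Id3 have none. Intervals lay wholly on the spleen side in 4 members when only the strongest peak of a gene was taken, in 7 with any overlap of peak and gene or with GC correction, and in 8 with reads of 75 bp. Foxo1 turned to 0.71 by nearest transcript start, which left it 1 peak. Foxp1 had -0.46 with peaks weighted by length, -0.33 in peaks of 1 kb or more and -0.07 in its strongest peak. Lef1 had -0.65 and Satb1 -1.08 in their strongest peak, and by nearest start Tcf7 had -1.57, Lef1 -1.11 and Satb1 -0.54. The causes were not tested. Of all genes, 222 were more than 2-fold higher in spleen and 372 in LI, against 459 and 623 without the filter, 39 and 70 with a minimum of 200 RPKM, and 145 in spleen with 5 RPKM added. Depth limits Id3 and Klf2 most, and without a second library per tissue the spread between samples is unknown.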
